A study of Mus musculus with 91 samples.

Results

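The miRNAs described here are the 42 mature miRNAs, of 1504 in the main count table, that are named miR-376, miR-654, miR-300, miR-381, miR-487, miR-539, miR-544, miR-382, miR-134, miR-668, miR-485, miR-453, miR-154, miR-496, miR-377, miR-541, miR-409, miR-412, miR-369 or miR-410. They were chosen by name alone, both arms and every letter included. They come from 22 miRNA genes, 20 with both arms listed and 2 (miR-453 and miR-654) with 1 arm. In GRCm38 the 22 genes lie on the plus strand at chr12:109722718-109743795, a stretch of 21078 bp between Dlk1, which ends at base 109463336, and Dio3, which starts at base 110279230. Against the GENCODE model of Mirg (chr12:109729764-109749460), 13 of the genes lie within it, 4 in exons (Mir134, Mir485, Mir377 and Mir410) and 9 in introns. The other 9 genes, with 17 of the mature miRNAs from Mir376c to Mir544, lie upstream of the annotated Mirg start. The remaining 71 of the 113 mature miRNAs of the Dlk1-Dio3 locus are given only for comparison.

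The Dlk1-Dio3 locus is imprinted. Its miRNAs are processed from long non-coding transcripts of the maternally inherited chromosome, while the paternal chromosome carries DNA methylation at the intergenic control region (IG-DMR) and expresses the protein-coding genes Dlk1 and Dio3. Each hairpin can yield a 5p and a 3p arm, and bases 2 to 8 of the mature arm, the seed, are the main determinant of target pairing. Many miRNAs of the locus are best known from brain and placenta, such as miR-134, which regulates dendritic spine growth and represses pluripotency factors, and the miR-376 family, whose hairpins can be edited from adenosine to inosine within the seed.

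The libraries were made to ask how DNA methylation influences miRNA levels in early mouse embryos, and how the IG-DMR influences the miRNAs of this locus. Small RNA was sequenced by CAS-seq, in which ligated cDNA is treated with Cas9 before amplification, from low RNA input. There were 91 libraries, 62 of them from dissected embryos. Extraembryonic ectoderm (Exe) and epiblast (Epi) were taken at E6.5 and E7.5 from control embryos, from Dnmt1-KO and Dnmt3a/3b-DKO mutants, and from Dnmt-null embryos, mutant in Dnmt1, Dnmt3a and Dnmt3b. Each of these groups had 4 libraries, except E7.5 Epi control and E7.5 Epi Dnmt-null with 3. The mutations were made by base editing of zygotes carrying an Oct4-EGFP reporter, so each embryo is an edited individual rather than the offspring of a mutant line. Androgenetic haploid embryonic stem cells (AG-haESCs), whose single genome comes from sperm, were profiled as WT (3 libraries), as the line O48 (3 libraries), and as libraries labelled Mir-6KO (2 libraries). The labels give O48 by name only. It is taken here to be the DKO line, which lacks the H19-DMR and the IG-DMR, because the methods describe miRNA deletions as made in O48. Mir-6KO denotes deletion of 6 miRNA genes, of which Mir541, Mir369 and Mir409 belong to the set described here, on the DKO background. Gene-modified lines were expanded from single cells, so each is 1 clone. Semi-cloned (SC) embryos, made by injecting an AG-haESC into an oocyte in place of sperm, were profiled at E6.5 as WT, DKO, Dnmt-null and DKO;Dnmt-null, and at E7.5 as control (made from DKO cells) and Mir-6KO;Dnmt-null, with 3 libraries each. In the SC embryos the DMR and miRNA deletions are on the genome contributed by the haploid cell alone. A further 3 AG-haESC libraries, labelled 408, could not be assigned to a genotype.

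The mature sequences that the results turn on are given 5′ to 3′, as RefSeq annotates them on GRCm38.p6, with the seed in capitals. RefSeq held 38 of the 42 sequences, and those of miR-376c-3p, miR-485-5p, miR-487b-3p and miR-539-3p are not printed. The most abundant arms and the arms that changed most often among the genotypes come first: miR-541-5p (chr12:109742422-109742446, in an intron of Mirg), both arms of miR-409 (chr12:109743204-109743225 for 3p and chr12:109743172-109743194 for 5p, in an intron), miR-485-3p (chr12:109734946-109734967, in an exon), then miR-410-3p, miR-381-3p, miR-134-5p, miR-382-5p, both arms of miR-369, miR-668-3p and the minor arm of miR-541.
miR-541-5p: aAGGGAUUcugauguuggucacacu
miR-409-3p: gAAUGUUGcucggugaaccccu
miR-409-5p: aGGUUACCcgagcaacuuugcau
miR-485-3p: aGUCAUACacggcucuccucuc
miR-410-3p: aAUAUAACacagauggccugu
miR-381-3p: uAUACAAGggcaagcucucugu
miR-134-5p: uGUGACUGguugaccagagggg
miR-382-5p: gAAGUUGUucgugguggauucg
miR-369-5p: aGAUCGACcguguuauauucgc
miR-369-3p: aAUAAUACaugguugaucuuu
miR-668-3p: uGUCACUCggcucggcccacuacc
miR-541-3p: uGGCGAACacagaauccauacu

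The 38 sequences were 20 to 25 nt long and held 36 distinct seeds, so that 2 pairs of members share one. A further 6 arms share their seed with a miRNA of the table outside the set: miR-134-3p (with miR-3620-5p), miR-668-5p (miR-467h), miR-377-5p (miR-672-5p), miR-412-3p (miR-1983), miR-410-3p (miR-344d-3p and miR-344e-3p) and miR-410-5p (miR-494-5p). The next 7 sequences show the members that resemble each other. miR-376c-5p and miR-376b-5p share the seed UGGAUAU and differ by U19G, and miR-453 and miR-496a-5p share the seed GGUUGCC. miR-376b-3p and miR-376a-3p differ by A4G, C13A and U20G, and miR-300-3p and miR-381-3p (above) differ by G4A, U21G and C22U, so each of these pairs differs inside the seed. Substitutions give the base of the first-named miRNA, the position from 1 at its 5′ end, and the base of the second.
miR-376c-5p: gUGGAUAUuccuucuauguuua
miR-376b-5p: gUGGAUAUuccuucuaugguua
miR-453: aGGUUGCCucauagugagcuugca
miR-496a-5p: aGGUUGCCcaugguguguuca
miR-376b-3p: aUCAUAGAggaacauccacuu
miR-376a-3p: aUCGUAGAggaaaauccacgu
miR-300-3p: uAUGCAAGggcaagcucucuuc

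The 4 arms that share a seed with another member were low. miR-376c-5p reached 2.29 CPM (the count scaled to a library total of 1e6 over every listed miRNA) in 1 E7.5 Exe Dnmt-null library, 2.27 in 1 E7.5 Epi Dnmt3a/3b-DKO library and at most 5.65 anywhere, in SC DKO;Dnmt-null. miR-376b-5p reached 32.6 CPM in dissected embryos, and miR-453 was read only in SC E6.5 WT replicate 1, with 2 counts (5.91 CPM). miR-496a-5p averaged 16 CPM over the 62 embryo libraries, with more than 3 counts in 33 of them and a highest value of 124 in E6.5 Epi Dnmt3a/3b-DKO replicate 2. Because miR-376b-5p and miR-376c-5p differ by a single base, reads could be split between them in counting, and their values are uncertain. The annotation also places a small RNA model antisense to Mir376a, Mir539 and Mir409, and whether the counting used strand is not given in the sources used here, so reads from either strand of these 3 hairpins cannot be told apart.

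Library totals ran from 45242 to 26970637 counts in the main table and from 177142 to 1366522 in the second table, which holds SC DKO;Dnmt-null alone, so that 3 counts correspond to between 0.111 and 66.3 CPM. The E6.5 embryo libraries were the shallowest, and E6.5 Epi Dnmt-null replicate 1 had the lowest total of all (45242). In Epi, control totals were 281158 to 458837 at E6.5 and 1623256 to 2325698 at E7.5. Dnmt-null totals were 45242 to 123169 and 272867 to 488108, below those of every other genotype of that stage. Depth and genotype thus go together for Dnmt-null Epi, and the part of depth in its calls was not tested. In that library miR-485-5p stood at 7228 CPM against 763 to 1241 in the other 3 of its group, and miR-382-5p at 44.2 against 1126 to 1500.3. SC E6.5 WT replicate 3 also stood apart, with 20.4% of its counts on the 42 miRNAs against 6.37% and 6.49% in the other 2 libraries. Its epiblast markers (miR-302a, b, c and d-3p with miR-367-3p) made up 2.13% of counts against 19.5% and 21.5% in the other 2. The 2 AG-haESC libraries labelled Mir-6KO go against their label, as described with the haploid cells. Replicates are separate samples of a group by their labels, and the p-values measure the spread between these samples, while floors and intervals cover counting error only.

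In dissected embryos the counts of the set were concentrated on a few arms. miR-409-3p was the most abundant, with a mean of 23131 CPM over the 62 libraries (lowest 11213, highest 35189), the 8th highest of the 1504 miRNAs. miR-541-5p followed at 10201 CPM (4481 to 26272), miR-409-5p at 6691 (3895 to 11310.4) and miR-485-3p at 4074 (1588 to 7913). These arms come from 3 hairpins of the distal part of the cluster. miR-410-3p, from the last hairpin of the cluster, averaged 1827 CPM (518 to 2991) and miR-381-3p 1364 (382 to 2426). The 3 most abundant arms held 71.7% and the 6 most abundant 84.8% of the counts of all 42. CPM values were compared between arms without division by length, since all sequences lie between 20 and 25 nt, and differences in ligation or amplification between arms were not measured.

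At the other end, miR-453, miR-654-3p and miR-668-5p were at 0 in all 62 embryo libraries, at floors of up to 66.3 CPM in the shallowest library. The genes of the cluster also differed in which arm was read. The 5p arm held 98.2% of the counts of miR-541 and 97.1% of miR-134. The 3p arm prevailed for miR-410 and miR-381, whose 5p arms held 0.845% and 0.813%, and for miR-376b, with 0.321%. miR-409 and miR-485 gave appreciable amounts of both arms, with 21% (16.5% to 34.6% by library) and 13.8% on 5p. For miR-369 the proportion varied widely, with 48.1% to 99.6% of its counts on the 5p arm over the 61 libraries with at least 20 counts.

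**Figure D1:**
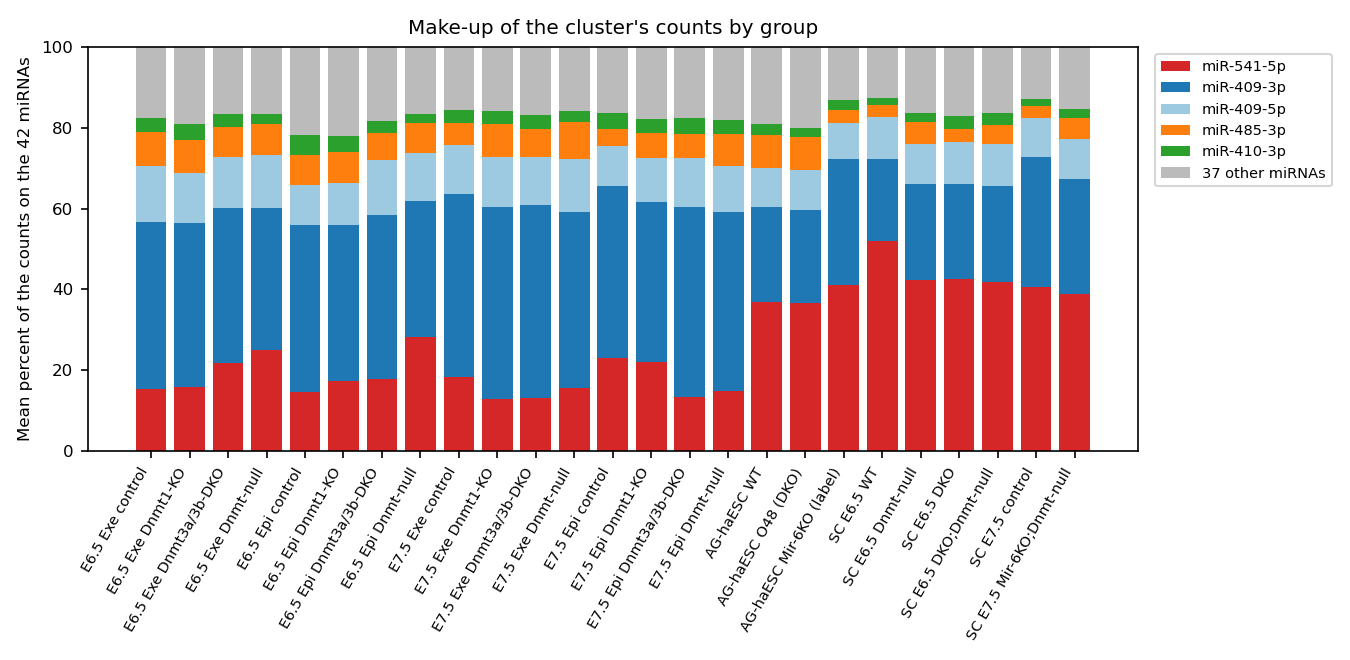
Stacked bars give the mean percentage of the counts on the 42 miRNAs that fell on miR-541-5p, miR-409-3p, miR-409-5p, miR-485-3p, miR-410-3p and the other 37, for each group (horizontal axis, libraries averaged with equal weight). miR-409-3p is the largest segment in the dissected embryos and miR-541-5p the largest in AG-haESCs and SC embryos.

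The proportions differed between the sources of material. Within the counts on the 42 miRNAs, miR-541-5p held 11.4% to 32.5% in the libraries of dissected embryos. In AG-haESCs of the 3 genotype labels it held 31.2% to 41.6%, and in SC embryos 35.4% to 47.1%, apart from 70.4% in SC E6.5 WT replicate 3. miR-409-3p held 31.6% to 51.8% in dissected embryos and 9.19% to 32.5% in SC embryos. These proportions are descriptions with no test, since the sources were not compared within 1 design.

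In the control embryos, the 42 miRNAs together made up 3.42% ± 0.457 of all counts in Exe (SD, n = 4) and 4.07% ± 0.118 in Epi (n = 4) at E6.5, and 4.97% ± 0.421 in Exe (n = 4) and 4.16% ± 0.135 in Epi (n = 3) at E7.5. In bulk tissue, fewer cells of a type and less RNA per cell cannot be told apart. Between tissues at E6.5, 7 of the 32 members tested were lower in Exe than in Epi, where 22.8% of the 658 miRNAs tested were called in either direction and 14.3% as lower in Exe (edgeR's quasi-likelihood test with Benjamini-Hochberg adjustment over all miRNAs tested, as for every adjusted p in the text). The median log2 fold change was -0.87 over the members and -0.43 over all tested miRNAs. miR-300-3p stood at 198, 259, 272 and 192 CPM in Exe and at 395, 381, 827 and 519 in Epi, and fell by 1.48 ± 0.35 (log2, SE; adjusted p = 0.00121). miR-487b-3p (-1.37 ± 0.44, adjusted p = 0.0192) and miR-412-3p (-1.36 ± 0.47, adjusted p = 0.0307) were also lower with no overlap between groups, whereas the Exe and Epi libraries overlapped for miR-377-3p (-1.39), miR-410-3p (-0.96), miR-381-3p (-0.88) and miR-409-3p (-0.51). The count did not hold: leaving out any 1 of the 8 libraries brought it to between 1 and 4, with no filter on low counts it was 0, and with RLE scaling, which moved the median of all tested miRNAs by 0.43, it was 1. Trophoblast markers of the Sfmbt2 cluster made up 3.76% to 6.82% of counts in E6.5 Exe and 0.576% to 2.6% in E6.5 Epi, epiblast markers 1.76% to 3.08% and 13% to 20%, and their part in the difference was not tested.

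At E7.5, none of the 32 members tested differed between control Exe and Epi, where 26.4% of 658 miRNAs were called, and 2 had an unadjusted p under 0.05, while DESeq2 called 1. The median was -0.27 over the members and -0.28 over all tested. From E6.5 to E7.5, 3 members rose in Exe, where 7.6% of tested miRNAs were called and 5.62% as higher. miR-409-3p stood at 18981, 12380.0, 14572 and 11213 CPM at E6.5 and 23765, 19666, 23586 and 22959.6 at E7.5 (0.67 ± 0.18, adjusted p = 0.0115). miR-541-5p rose by 0.83 ± 0.20 (adjusted p = 0.00389), although 1 of its E7.5 libraries (5759 CPM) lay within the E6.5 range of 4481 to 6084. miR-412-3p also rose (1.50 ± 0.47, adjusted p = 0.0356). Without E6.5 Exe control replicate 2, 1 of these calls was left. Epiblast markers made up 1.76% to 3.08% of counts in control Exe at E6.5 and 3.34% to 4.59% at E7.5. White blood cell markers (both arms of miR-142a with miR-223-3p and miR-150-5p) made up 0% to 0.00935% and 0.0156% to 0.197%. In Epi, 17.5% of tested miRNAs were called with stage, 6.08% higher and 11.4% lower, and 2 members were among them. miR-541-5p rose from 6064, 5954, 6358 and 5627 CPM to 8788, 9453 and 10285 (0.79 ± 0.21, adjusted p = 0.00478). miR-376b-3p fell from 1313, 1284, 1903 and 1543 CPM to 761, 706 and 591 (-1.03 ± 0.35, adjusted p = 0.0319). Leaving out any 1 of the 3 E7.5 Epi controls left 1 call, and a model of the 2 groups alone gave 11. Naive pluripotency markers (miR-290a-3p, miR-291a-3p, miR-292a-3p, miR-294-3p and miR-295-3p) made up 6.65% to 9.95% of counts at E6.5 and 4.2% to 5.34% at E7.5 in control Exe. In control Epi they made up 5.93% to 6.33% and 1.44% to 1.49%. The list was higher in Exe than in Epi, so its name is a label only. In Epi, epiblast markers were at 13% to 20% and 20.2% to 21.3%, and trophoblast markers at 0.576% to 2.6% and 0.191% to 0.224%. White blood cell markers were at 0.0259% to 0.0327% and 0.00958% to 0.0139% in Epi. Decidual stroma and muscle markers (miR-143-3p, miR-145a-5p and miR-199a-3p) were at 0.00559% to 0.0107% and 0.0232% to 0.0396%. The part of all these markers in the stage differences was not tested.

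A larger share of the counts fell on these miRNAs in Dnmt-null embryos than in controls. The share of all counts on the 42 was 6.25% ± 1.03 in Exe and 7.82% ± 0.636 in Epi at E6.5, then 7.47% ± 0.501 in Exe and 7.3% ± 0.72 in Epi at E7.5, and in none of the 4 tissues and stages did a Dnmt-null library overlap the controls. The share in Dnmt1-KO was 4.62% ± 1.23, 5.38% ± 0.425, 6.56% ± 0.345 and 6.28% ± 0.213 in the same order, and it overlapped the controls in E6.5 Exe alone. In Dnmt3a/3b-DKO it was 5.44% ± 1.06, 4.49% ± 0.882, 6.31% ± 0.618 and 4.61% ± 0.182, and it overlapped the controls in E6.5 Epi alone. In E7.5 Epi its lowest library stood at 4.37% and the highest control at 4.31%. The shares are given with no test. The median share on the other miRNAs of the locus was 9.66%, 9.91%, 11.5% and 9.1% in control. In Dnmt-null it was 13.8%, 17.9%, 16.9% and 16.5%, in the same order, so a higher share was not particular to the 42. The 3 mutant groups of a tissue and stage were compared with the same controls.

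**Figure D2:**
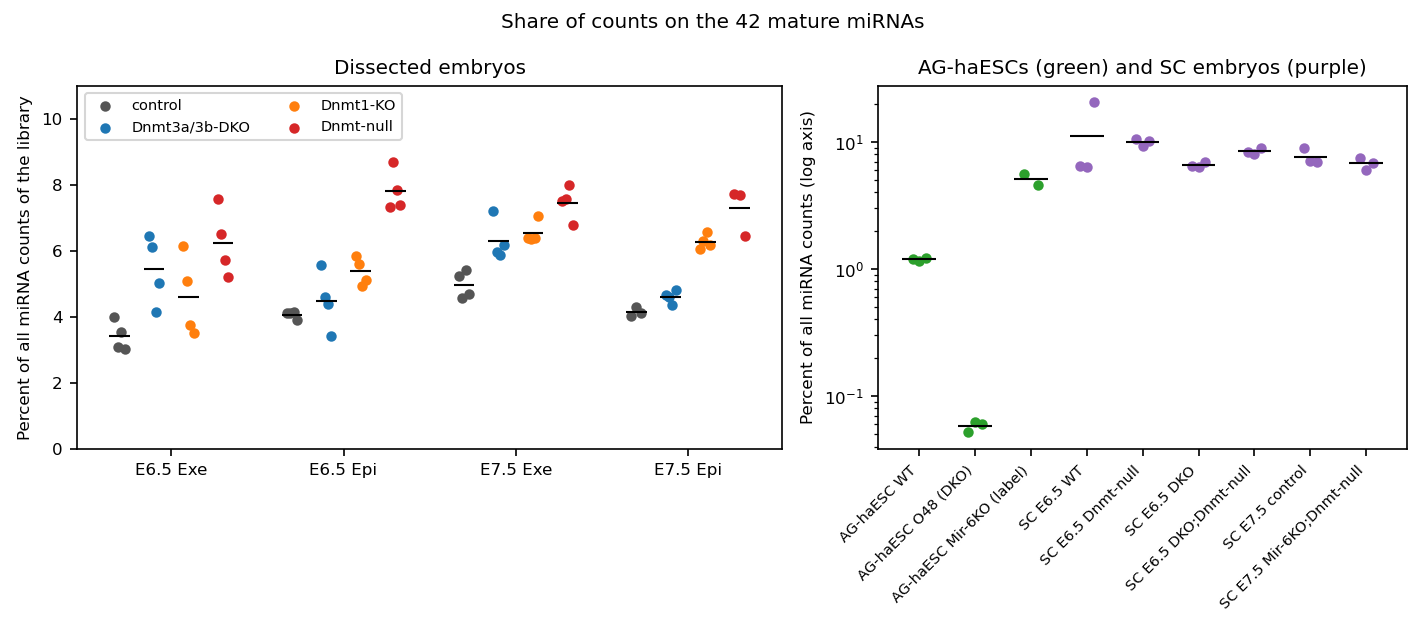
Each point is 1 library, and its height is the percentage of all miRNA counts that fell on the 42 miRNAs, with a horizontal line at the group mean, for dissected embryos by genotype (left, linear axis) and for AG-haESCs and SC embryos (right, log axis). Dnmt-null libraries lie above the controls in all 4 tissues and stages, and the O48 (DKO) haploid cells lie at 0.0518% to 0.0625%.

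At E6.5 the arm called in both tissues was miR-541-5p. In Exe it stood at 6084, 5007, 5156 and 4481 CPM in controls and at 18995, 15169, 15442 and 12875 in Dnmt-null, a log2 fold change of 1.40 ± 0.24 (adjusted p = 0.00257). Fold changes use TMM library scaling, so they need not equal the ratio of CPM values. It was the single call among 24 members tested, where 0.532% of the 376 tested miRNAs were called and 0.266% as higher, so 1 of only 2 calls in that comparison was a member. A further 2 members had an unadjusted p under 0.05, and 20 of the 24 had fitted changes above 0. The members' median was 0.54 and that of all tested miRNAs -0.08. Leaving out control replicate 3 added 1 call, and DESeq2 made 3. The epiblast markers held 1.25% to 2.44% of counts in these Dnmt-null libraries and 1.76% to 3.08% in controls.

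In E6.5 Epi, 4 of 26 members rose in Dnmt-null, where 13% of the 409 tested miRNAs were called and 8.31% as higher. miR-541-5p rose from 6064, 5954, 6358 and 5627 CPM to 17749, 26272, 25489 and 18779 (1.75 ± 0.22, adjusted p = 1.87e-05), so that the lowest Dnmt-null library was far above the highest control. miR-409-5p rose from 4296, 3923, 4006 and 4034 CPM to 8068, 9174, 9017 and 10693 (1.06 ± 0.22, adjusted p = 0.00188). With no filter on low counts the calls of miR-409-5p (adjusted p = 0.112) and miR-668-3p (adjusted p = 0.139) were lost. miR-668-3p rose from 289.9, 320.1, 299 and 207 CPM to 1835, 975, 495 and 601 (1.67 ± 0.47, adjusted p = 0.0197), and this call was lost when Dnmt-null replicate 1 (adjusted p = 0.0584), control replicate 1 or control replicate 4 was left out. miR-485-5p, whose gene is the exonic Mir485, rose from 220.1, 263, 206 and 299 CPM to 7228, 1241, 1050.2 and 763 (3.23 ± 0.60, adjusted p = 0.00082). Without replicate 1, the shallowest library, its change was 1.94 (adjusted p = 0.00141). The members' median was 0.18 against -0.14 over all, with 14 of the 26 above 0. Epiblast markers made up 4.85% to 10% of counts in Dnmt-null Epi and 13% to 20% in control, and naive markers 1.88% to 3.96% against 5.93% to 6.33%. White blood cell markers (both arms of miR-142a with miR-223-3p and miR-150-5p) made up 0.042% to 0.136% against 0.0259% to 0.0327%, with miR-223-3p at 0 in both groups. Their part in the result was not tested.

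At E7.5 more members were tested than at E6.5, in deeper libraries, and more were called. Whether the Dnmt-null effect differed between the stages was not tested. In Exe, 6 of 33 members rose in Dnmt-null, where 9.88% of the 597 tested miRNAs were called and 6.87% as higher. miR-485-3p rose from 2289.8, 2719.7, 2530.3 and 2972 CPM to 6956, 6782, 7913 and 6024 (1.42 ± 0.20, adjusted p = 0.000117). miR-134-5p rose from 537, 455, 526 and 583 CPM to 1318, 1344, 1827 and 1554 (1.56 ± 0.30, adjusted p = 0.00157), and miR-382-5p from 325, 455, 342 and 386 to 1641, 906, 901 and 522 (1.37 ± 0.35, adjusted p = 0.0142). These 3 arms come from Mir382, Mir134 and Mir485, which lie within chr12:109733771-109734974 together with Mir668, and for none of them did a Dnmt-null library fall within the control range. The call of miR-382-5p was lost without Dnmt-null replicate 1, its highest library (adjusted p = 0.0786). miR-409-5p (0.73 ± 0.15), miR-409-3p (0.56 ± 0.14) and miR-300-3p (1.0 ± 0.28) made up the 6, and miR-300-3p missed the threshold in 8 of 13 alternative settings, among them without either Dnmt-null replicate 1 or 2 or any 1 control. The call of miR-409-3p was lost without control replicate 2 (adjusted p = 0.0564). The members' median was 0.47 against -0.05 over all, with 29 of the 33 above 0. miR-541-5p, with 9938, 9151, 12018 and 5759 CPM in controls and 12869, 12894, 11861 and 9043 in Dnmt-null, overlapped between groups here and was not called. The epiblast markers held 1.73% to 2.74% of counts in these Dnmt-null libraries and 3.34% to 4.59% in controls, and red blood cell markers (miR-451a and both arms of miR-144) 0.00166% to 0.00338% against 0.00781% to 0.0222%, and the part of either was not tested.

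In E7.5 Epi, 12 of 32 members rose and none fell in Dnmt-null, where 33.7% of the 652 tested miRNAs were called in either direction and 16.4% as higher. The share of members called, 12 of 32, was close to the percentage called among all tested, but all 12 were on the higher side. miR-485-3p rose from 1588, 1811 and 1759 CPM to 6494, 6240.4 and 4362 (1.49 ± 0.15, adjusted p = 1.85e-06). miR-382-5p rose from 289, 292 and 185 to 960.2, 959 and 910.3 (1.66 ± 0.30, adjusted p = 0.000447), and miR-369-3p from 69.7, 76.1 and 73.9 to 329.8, 318 and 289 (1.86 ± 0.35, adjusted p = 0.00074). miR-369 is known for its part, with other miRNAs, in reprogramming of cells to pluripotency. For these 3 arms the lowest Dnmt-null library was above 2 times the highest control, and miR-134-5p (575, 589 and 376 CPM against 1213, 1684 and 1706) also rose, by 1.35 ± 0.24 (adjusted p = 0.000371). Both arms of miR-409 rose, 3p from 17397, 18733 and 17163 CPM to 34372, 34219.9 and 28224 (0.63 ± 0.09, adjusted p = 6.46e-05) and 5p from 4050.0, 4374 and 3895 to 8484, 9537 and 7258 (0.80 ± 0.12, adjusted p = 7.26e-05). The other 6 were miR-376b-3p (0.95), miR-377-3p (0.92), miR-485-5p (0.84), miR-300-3p (0.68), miR-487b-3p (0.68) and miR-381-3p (0.55). Of these, miR-485-5p, miR-300-3p, miR-487b-3p and miR-381-3p each lost the call when at least 1 library was left out, which in each case included a control. miR-541-5p stood at 8788, 9453 and 10285 CPM in controls and 12072, 10373 and 10082 in Dnmt-null, and was not called.

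**Figure D3:**
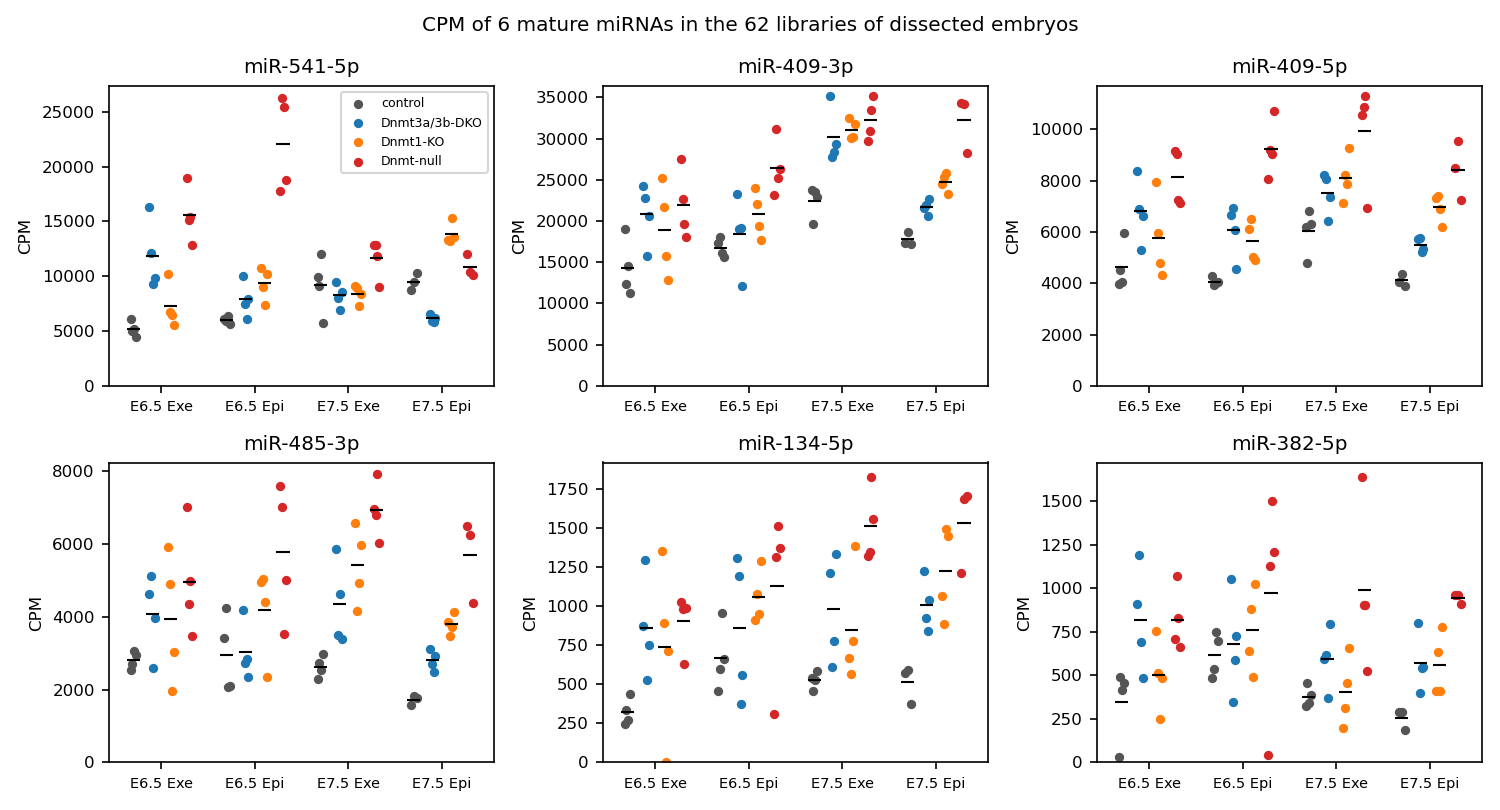
Each panel plots the CPM of 1 miRNA (linear axis from 0) in the 62 libraries of dissected embryos, by tissue and stage along the horizontal axis and by genotype in colour, with a horizontal line at the group mean. miR-541-5p is highest in Dnmt-null at E6.5, with values of 12875 to 26272 CPM, while at E7.5 miR-485-3p, miR-134-5p and miR-382-5p separate Dnmt-null from control.

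The median of the E7.5 Epi members was 0.72 against -0.19 over all tested, and 27 of the 32 fitted values were above 0. The 71 other miRNAs of the locus gave 22 higher and 1 lower of 67 tested, with a median of 0.51, so the members did not stand apart from the rest of the locus in these counts, and the difference between the 2 sets was not tested. Markers moved in this comparison too. Epiblast markers made up 10.5% to 16.5% of counts in Dnmt-null and 20.2% to 21.3% in control, trophoblast markers 0.393% to 0.861% against 0.191% to 0.224%, and white blood cell markers 0.0891% to 0.109% against 0.00958% to 0.0139%, with miR-223-3p at 0 in both groups and miR-142a-3p at 0 in control. Naive markers made up 2.31% to 2.96% against 1.44% to 1.49%, decidual stroma and muscle markers (miR-143-3p, miR-145a-5p and miR-199a-3p) 0.000733% to 0.00615% against 0.0232% to 0.0396%, and red blood cell markers 0.00107% to 0.00257% against 0% to 0.00106%. The part of these markers in the result was not tested.

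Whether Dnmt loss acted differently in Epi and Exe was tested as an interaction. None of 32 members passed at E6.5 and none of 32 at E7.5, where 0.912% and 0.608% of the 658 tested miRNAs were called. At an unadjusted p under 0.05 there were 10 and 0 members, and DESeq2 called 4 and 0. Since none passed, differences between the lists of called members in Epi and Exe are not shown to be differences between the tissues.

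Dnmt1-KO embryos had fewer called members, and of the arms called in E7.5 Epi all were higher. In E6.5 Exe 0 of 24 members were called (0% of 376 miRNAs, with 1 member at an unadjusted p under 0.05 and 0 by DESeq2), and in E6.5 Epi 0 of 26 (0.733% of 409, with 1 at an unadjusted p under 0.05 and 0 by DESeq2). The medians were 0.36 and 0.42 against -0.06 and -0.01 over all tested. In E7.5 Exe 2 of 33 rose, where 5.03% were called and 4.19% as higher. miR-485-3p rose to 6573, 4153, 4921 and 5977 CPM from the control values of 2289.8 to 2972 (1.1 ± 0.20, adjusted p = 0.00314). miR-409-3p rose by 0.53 ± 0.14 (adjusted p = 0.0316), a call lost in 9 of 13 alternative settings, including without any 1 of the 8 libraries other than control replicate 3.

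In E7.5 Epi 8 of 32 members rose in Dnmt1-KO, where 16.3% of miRNAs were called and 8.28% as higher, with a median of 0.43 against -0.15. miR-381-3p rose from 798, 1010.5 and 949.9 CPM to 2144, 2162, 2087 and 1817 (0.97 ± 0.15, adjusted p = 0.000254), and miR-485-3p to 3845, 3464, 3707 and 4134 (0.95 ± 0.14, adjusted p = 0.000137). miR-134-5p rose to 1063, 884, 1494 and 1446 CPM (1.06 ± 0.22, adjusted p = 0.00309). The 8 also included miR-382-5p (0.94 ± 0.28), miR-376b-3p (0.78) and miR-409-5p (0.58), and the call of miR-382-5p was lost in 6 of 12 alternative settings, among them without any 1 control. The smallest changes were in the abundant arms. miR-409-3p rose by 0.29 ± 0.09 (adjusted p = 0.0278) and miR-541-5p by 0.35 ± 0.11 (adjusted p = 0.0342), the latter with 13329.7, 13217, 15289 and 13566 CPM in Dnmt1-KO. Both of these calls were lost in at least 4 of 12 settings. The count was 5 without control replicate 2 or without Dnmt1-KO replicate 2. Epiblast markers made up 13.6% to 20% of counts in Dnmt1-KO Epi at E7.5, below the control range of 20.2% to 21.3%. In the same comparison naive markers made up 1.73% to 2.67% against 1.44% to 1.49% in control, trophoblast markers 0.251% to 0.313% against 0.191% to 0.224%, white blood cell markers 0.0353% to 0.0542% against 0.00958% to 0.0139%, and liver and visceral endoderm markers (miR-122-5p, miR-192-5p and miR-194-5p) 0.103% to 0.138% against 0.0415% to 0.0914%. Their part in the result was not tested.

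Dnmt3a/3b-DKO embryos showed fewer calls, and 1 in the opposite direction. In E6.5 Exe miR-541-5p was called (16301, 12102, 9264 and 9884 CPM, 1.02 ± 0.23, adjusted p = 0.0492), the single call of 24, where 0.532% were called and 0.266% as higher. It was lost in 7 of 13 settings, with adjusted p of up to 0.281 without Dnmt3a/3b-DKO replicate 1, and also without Dnmt3a/3b-DKO replicate 2 or 3 or control replicate 2, 3 or 4. In E6.5 Epi 0 of 26 members were called, where 3.42% were called, with 6 at an unadjusted p under 0.05 and 1 by DESeq2. In E7.5 Exe 0 of 33 were called, where 3.02% were called, with 5 at an unadjusted p under 0.05 and 2 by DESeq2. In E7.5 Epi 3 members rose and 1 fell of 32, where 7.67% were called, 5.98% higher and 1.69% lower. miR-382-5p rose to 802, 398, 544 and 549 CPM (1.09 ± 0.28, adjusted p = 0.0196), miR-134-5p to 1225, 922, 843 and 1036 (0.89 ± 0.22, adjusted p = 0.0167), and miR-485-3p to 3104, 2693, 2478 and 2929 (0.62 ± 0.14, adjusted p = 0.00827). miR-541-5p fell to 6604, 5944, 5876 and 6201 CPM, all below the control range of 8788 to 10285 (-0.71 ± 0.11, adjusted p = 0.000207). Without control replicate 3, the calls of miR-382-5p and miR-134-5p were lost. Against the same E7.5 Epi controls, trophoblast markers made up 0.261% to 0.542% in Dnmt3a/3b-DKO, white blood cell markers 0.0392% to 0.0616%, liver and visceral endoderm markers 0.113% to 0.199% and naive markers 1.56% to 2.17%, each above the control range, while epiblast markers (19.3% to 20.3%) overlapped it. The part of these markers in the calls was not tested. The medians of the members were 0.32 in Exe and 0.04 in Epi at E6.5, and 0.38 in Exe and 0.14 in Epi at E7.5, against -0.04, -0.12, -0.09 and 0.02 over all tested.

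**Figure D4:**
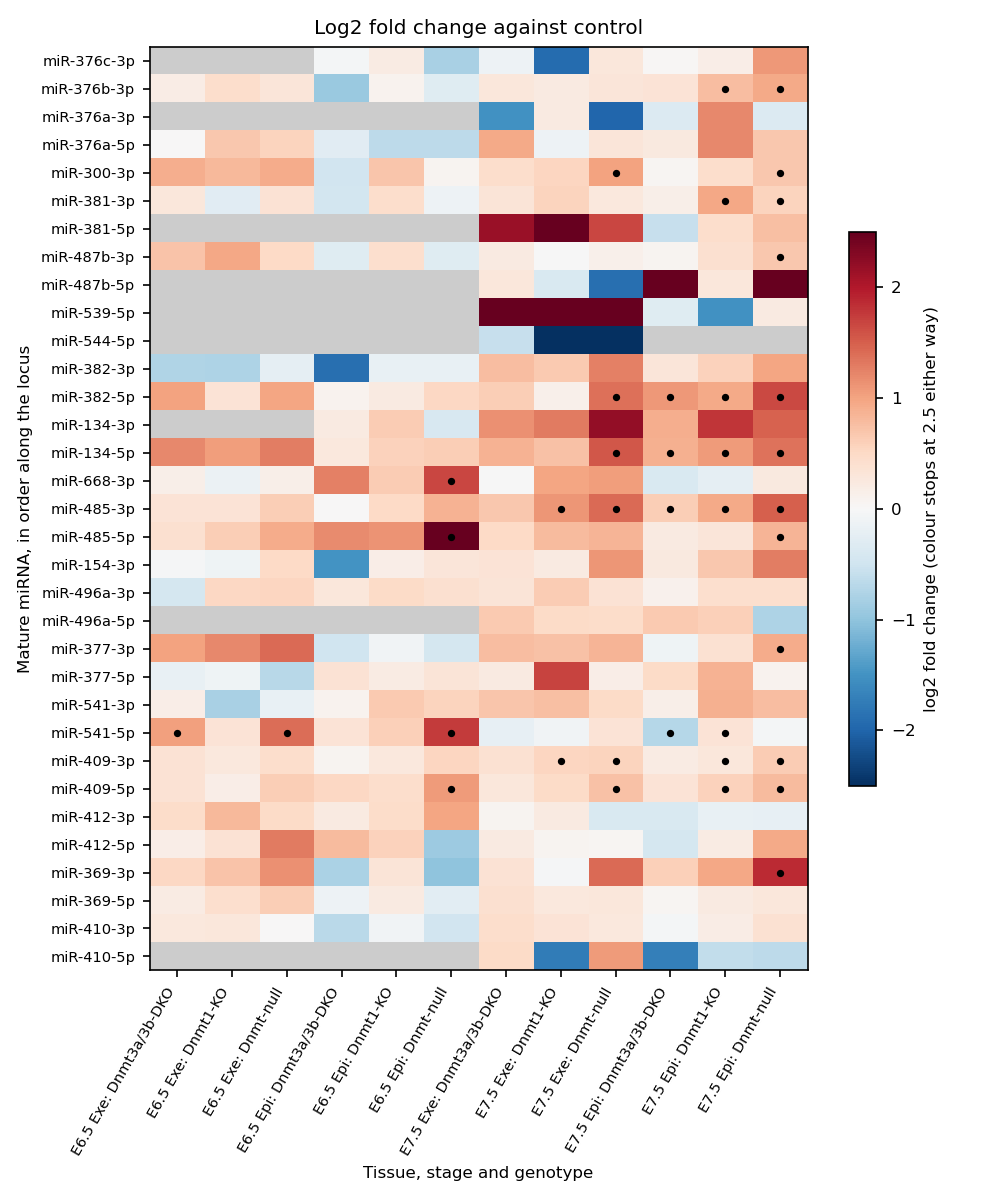
The heat map gives the log2 fold change against control (colour, which stops at 2.5 either way) of the 33 members tested in at least 1 comparison, in their order along the locus (rows), for 3 genotypes in each tissue and stage (columns), with a dot where the adjusted p was under 0.05 and grey where a miRNA was not tested. Dots are most frequent in E7.5 Epi, with 12 for Dnmt-null, 8 for Dnmt1-KO and 4 for Dnmt3a/3b-DKO, where only miR-541-5p in Dnmt3a/3b-DKO is on the lower side.

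The mutant genotypes were also compared with each other. Dnmt-null and Dnmt1-KO differed in 0 of 24 members in E6.5 Exe (0% of miRNAs called, with 1 member at an unadjusted p under 0.05 and 1 by DESeq2) and in 0 of 33 in E7.5 Exe (1.17% called, with 4 at an unadjusted p under 0.05 and 2 by DESeq2). In E6.5 Epi miR-541-5p was higher in Dnmt-null (17749 to 26272 CPM) than in Dnmt1-KO (10735, 9066, 7392 and 10239.8 CPM), by 1.16 ± 0.22 (adjusted p = 0.00567). It was the single call of 26, where 1.96% were called and 1.22% as higher, and it was lost without Dnmt1-KO replicate 3 (adjusted p = 0.103). In E7.5 Epi 2 members were higher and 1 lower in Dnmt-null, where 10.9% were called, 5.06% higher and 5.83% lower. miR-485-3p (0.54 ± 0.14, adjusted p = 0.0168) and miR-409-3p (0.33 ± 0.09, adjusted p = 0.0183) were higher, and miR-541-5p was lower in Dnmt-null (10082 to 12072 CPM) than in Dnmt1-KO (13217 to 15289 CPM), by -0.40 ± 0.11 (adjusted p = 0.0274). All 3 calls were lost without Dnmt-null replicate 2, and without Dnmt-null replicate 1 a single call was left. In both Epi comparisons marker lists differed without overlap, at E6.5 epiblast markers (4.85% to 10% in Dnmt-null, 13% to 15.8% in Dnmt1-KO) and naive markers (1.88% to 3.96% and 4.85% to 6.56%), and at E7.5 trophoblast (0.393% to 0.861% and 0.251% to 0.313%), white blood cell (0.0891% to 0.109% and 0.0353% to 0.0542%) and decidual stroma and muscle markers (0.000733% to 0.00615% and 0.0102% to 0.0352%). Their part was not tested.

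Dnmt-null and Dnmt3a/3b-DKO differed most in E7.5 Epi. In E6.5 Exe 0 of 24 members were called (0% of miRNAs called, with no member at an unadjusted p under 0.05 and 0 by DESeq2). In E6.5 Epi miR-541-5p alone of 26 was higher in Dnmt-null, by 1.40 ± 0.22 (adjusted p = 0.000967), where Dnmt3a/3b-DKO stood at 10048, 7474, 6149 and 7955 CPM, and 1.22% of miRNAs were called, 0.978% higher. In E7.5 Exe miR-485-3p alone of 33 was higher (0.74 ± 0.20, adjusted p = 0.0447), where 3.85% were called and 1.34% as higher, and the call was lost in 9 of 13 settings, including without any 1 of the 8 libraries other than Dnmt3a/3b-DKO replicate 1. In E7.5 Epi 12 of 32 members were higher in Dnmt-null and none lower, where 16.4% were called and 6.6% as higher, with a median of 0.58 against -0.19. miR-412-5p stood at 227, 129 and 136 CPM in Dnmt-null against 70.3, 28.6, 39.7 and 90 (1.38 ± 0.43, adjusted p = 0.0386), miR-369-3p at 289 to 329.8 against 94.2 to 147 (1.27 ± 0.32, adjusted p = 0.0106) and miR-377-3p at 858, 662 and 643 against 271, 329, 274 and 407 (1.03 ± 0.21, adjusted p = 0.00333). miR-541-5p was higher by 0.67 ± 0.11 (adjusted p = 0.000408). The other 8 were miR-485-3p (0.87), miR-300-3p (0.63), miR-487b-3p (0.63), miR-668-3p (0.61), miR-376b-3p (0.60), miR-409-5p (0.46), miR-409-3p (0.42) and miR-410-3p (0.42). The count was 6 without Dnmt3a/3b-DKO replicate 2, and 7 without Dnmt3a/3b-DKO replicate 3, Dnmt-null replicate 1 or Dnmt-null replicate 3. The call of miR-412-5p was among those lost in these 4 fits. Epiblast markers were at 10.5% to 16.5% in E7.5 Epi Dnmt-null and 19.3% to 20.3% in Dnmt3a/3b-DKO, naive markers at 2.31% to 2.96% and 1.56% to 2.17%, white blood cell markers at 0.0891% to 0.109% and 0.0392% to 0.0616%, and decidual stroma and muscle markers at 0.000733% to 0.00615% and 0.0267% to 0.0566%. At E6.5 Epi the epiblast markers were at 4.85% to 10% and 11% to 15.9%. In E7.5 Exe the white blood cell markers were at 0.00389% to 0.0694% and 0.127% to 0.275%, and the red blood cell markers at 0.00166% to 0.00338% and 0.0162% to 0.23%. The part of these markers was not tested.

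In the haploid cells the set was much lower in O48 than in WT. In WT AG-haESCs the 42 miRNAs made up 1.19% ± 0.0355 of all counts (n = 3), and in O48 0.0583% ± 0.00572 (n = 3). Of 29 members tested 24 fell in O48 and none rose, where 13.7% of the 773 tested miRNAs were called and 11.5% as lower, and the members' median log2 fold change was -4.34 against -0.28 over all. With members at 0 in O48 set to the bound that 3 counts per library gives, the median was -4.30. miR-541-5p stood at 4418, 4197 and 4509 CPM in WT and 215, 229 and 189 in O48 (-4.34 ± 0.12, adjusted p = 2.45e-07). miR-409-3p stood at 2819, 2732 and 2828 CPM in WT and 102, 148 and 159 in O48 (-4.33 ± 0.18, adjusted p = 1.75e-06). The changes of miR-409-5p (-4.31 ± 0.24) and miR-485-3p (-4.30 ± 0.24) were of the same size within their errors. For each of these arms every O48 library lay more than 10-fold below every WT library.

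The less abundant arms fell as well, with wider errors. miR-369-3p stood at 293, 285 and 244 CPM in WT and 6.58, 17.4 and 21.9 in O48 (-4.14 ± 0.48), and miR-369-5p at 75.2, 53 and 95.4 in WT and 10.2, 3.11 and 2.15 in O48 (-3.80 ± 0.65). miR-668-3p had 659 counts over the WT libraries and 8 over O48, a ratio of 104 (95% exact interval 52.4 to 242), and miR-377-5p 172 and 2, a ratio of 108 (29.6 to 903). miR-376c-3p stood at 14.6, 14.6 and 4.72 CPM in WT and at 0 in all 3 O48 libraries, at least 20.8-fold lower at a floor of 3 counts per library. The other 15 called arms changed by between -5.65 (miR-154-3p) and -3.01 (miR-485-5p), among them miR-541-3p (-3.95 ± 0.69), and the calls of miR-154-3p, miR-496a-3p and miR-377-3p were lost in 5, 4 and 2 of 12 alternative settings. The 5 members that were tested and not called, miR-134-3p, miR-376a-5p, miR-410-5p, miR-487b-5p and miR-539-5p, had at most 15.4 CPM in any WT library. Without the libraries labelled Mir-6KO in the model 25 members were called, and leaving out any 1 library left between 21 and 24. The other miRNAs of the locus gave 41 lower and none higher of 63 tested, with a median of -4.23, and whether the members differ from them was not tested. Epiblast markers made up 0.0924% to 0.167% of counts in O48 and 0.366% to 0.391% in WT, and naive markers 6.72% to 7.93% and 5.87% to 6.1%. Trophoblast markers were at 0.249% to 0.355% and 0.483% to 0.499%, white blood cell markers at 0.0487% to 0.116% and 0.135% to 0.137%, and liver and visceral endoderm markers at 0.105% to 0.115% and 0.305% to 0.334%, and the part of these markers was not tested.

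The 2 libraries labelled Mir-6KO held reads of every arm of the deleted genes. miR-541-5p stood at 22638 and 18799 CPM, miR-409-3p at 17447 and 14197, miR-409-5p at 4437 and 4451, miR-369-5p at 291 and 219, and miR-541-3p at 191 and 108. These values were above those of every WT AG-haESC library. The sixth arm, miR-369-3p, went the other way, with 46.3 and 29.9 CPM against 293, 285 and 244 in WT. With 5 of the 6 arms above WT, the data go against the label. Their epiblast markers made up 23.9% and 26.8% of counts, against at most 0.391% in the WT and O48 libraries, and their naive markers 1.05% and 1.21%, against at least 5.87%. Against O48, which both AG-haESC comparisons share, 23 of 29 members were higher in the libraries labelled Mir-6KO, where 52.1% of miRNAs were called and 20.4% as higher, with a median of 5.19 against -0.82 (5.10 with members at 0 in O48 set to their bound). miR-541-5p was higher by 6.11 ± 0.14 (adjusted p = 4.12e-08) and miR-409-3p by 6.35 ± 0.20 (adjusted p = 2.34e-07). miR-369-5p was higher by 5.10 ± 0.71 (adjusted p = 0.000569), while miR-369-3p was not called (0.81 ± 0.47, adjusted p = 0.166). miR-376c-3p was at least 99.3-fold and miR-376a-5p at least 52.4-fold higher than in O48, where both were at 0. miR-668-3p stood at 555 and 445 CPM against 0, 0 and 1.72 in O48. The other 17 called members had fitted changes of 4.38 (miR-300-3p) to 8.11 (miR-412-3p). The part of the epiblast markers in these differences was not tested, and no statement about the Mir-6KO genotype is drawn from these libraries.

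**Figure D5:**
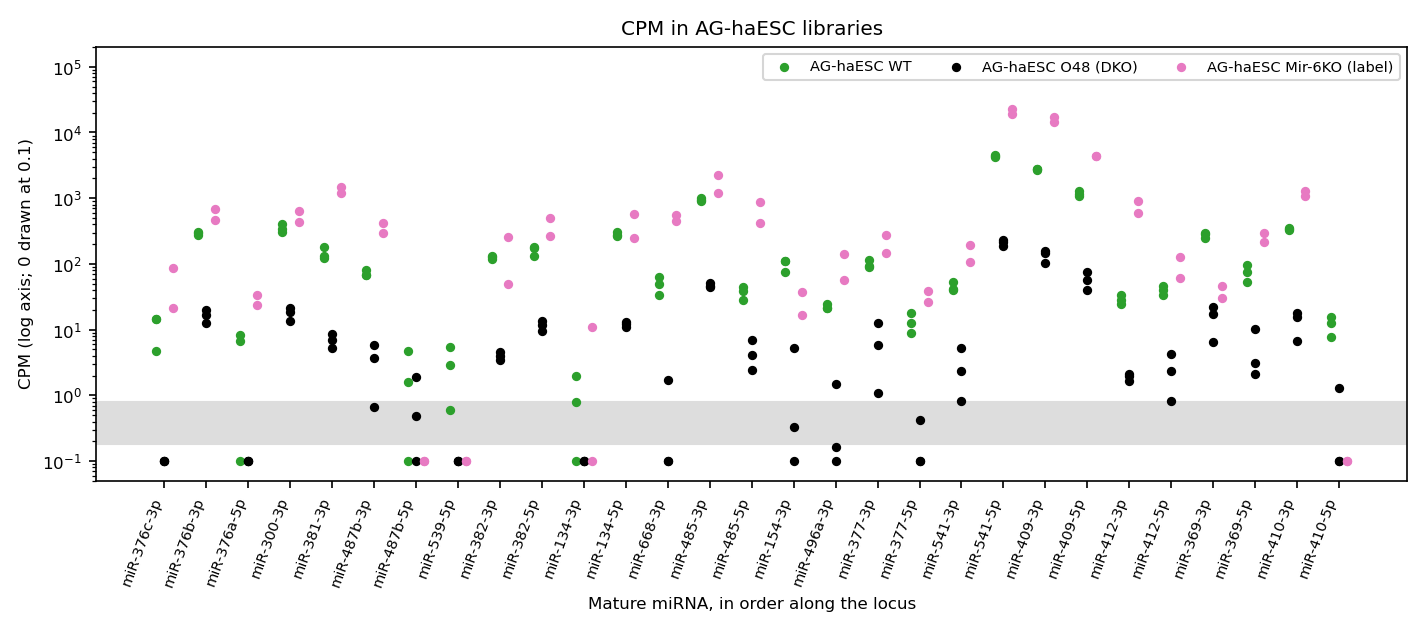
Points give the CPM (log axis, with 0 drawn at 0.1) of the 29 tested members in each library of AG-haESC WT, O48 (DKO) and the libraries labelled Mir-6KO, in their order along the locus, and the grey band spans the CPM of 3 counts in these libraries. The O48 points lie below the WT points for each of the 24 called members, with miR-541-5p at 189 to 229 against 4197 to 4509 CPM.

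In SC embryos at E6.5 the set held several percent of all counts in every genotype, DKO included. The share was 6.58% ± 0.294 in DKO, 8.44% ± 0.491 in DKO;Dnmt-null, 9.98% ± 0.687 in Dnmt-null and 11.1% ± 8.08 in WT (n = 3 each), or a mean of 6.43% for WT without replicate 3. DKO and WT differed in 0 of 26 members, where 0.217% of 461 miRNAs were called, with 2 members at an unadjusted p under 0.05 and 1 by DESeq2. The members' median was 0.00 against 0.10 over all tested. miR-541-5p stood at 27799, 26411 and 29831 CPM in DKO and 30107, 25008 and 143717 in WT (-1.62 ± 0.72, adjusted p = 0.381), and the fitted difference rests on WT replicate 3. Without WT replicate 1, 1 member was called.

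SC Dnmt-null and WT embryos at E6.5 also differed in 0 of 26 members, where 1.52% of miRNAs were called, each as higher, with 1 member at an unadjusted p under 0.05 and 0 by DESeq2. The median was 0.37 against 0.06, and 1 member was called without WT replicate 3. Excluding that replicate, every Dnmt-null library had a higher share than every WT library (9.22% to 10.6% against 6.37% and 6.49%). miR-485-3p stood at 4407, 6863 and 4807 CPM in Dnmt-null and 2153, 2908 and 3206 in WT, and miR-409-3p at 27015, 20936 and 23756 against 15423, 17598 and 18759. Neither was called, although the groups did not overlap. The epiblast markers held 8.26% to 12.3% of counts in SC Dnmt-null. In WT they held 19.5% and 21.5%, and 2.13% in replicate 3. Liver and visceral endoderm markers held 0.317% to 0.447% in Dnmt-null and 0.178% to 0.23% in WT. Decidual stroma and muscle markers held 0.0165% to 0.0205% and 0.009% to 0.0112%. The part of these markers was not tested.

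Loss of the Dnmt genes on the DKO background was read from libraries of separate tables. In DKO;Dnmt-null 7 of 34 members were higher than in DKO, where 35.3% of the 603 miRNAs tested among the 895 that both tables list were called and 18.9% as higher, so the members' share was near the background. miR-485-3p stood at 4042, 3839 and 4271 CPM against 1993, 1665 and 2487 (0.88 ± 0.12, adjusted p = 6.19e-06), miR-134-5p at 1295, 1456 and 1417 against 749, 823 and 859 (0.66 ± 0.10, adjusted p = 2.83e-05) and miR-382-5p at 1049, 886 and 879 against 558, 548 and 598 (0.63 ± 0.10, adjusted p = 6.68e-05). For each of these arms of Mir485, Mir134 and Mir382 the groups did not overlap. The other 4 were miR-485-5p (0.59), miR-369-3p (0.44), miR-496a-3p (0.40) and miR-409-3p (0.29 ± 0.09, adjusted p = 0.0172), of which miR-496a-3p and miR-409-3p lost the call without either DKO replicate 1 or 2. The median was 0.17 against -0.05 over all. The table and the genotype cannot be told apart here, and epiblast markers made up 13% to 14.7% of counts in DKO;Dnmt-null and 17.8% to 19.7% in DKO. White blood cell markers were at 0.065% to 0.083% and 0.0205% to 0.0256%, trophoblast markers at 1.82% to 2.35% and 1.49% to 1.69%, and liver and visceral endoderm markers at 0.229% to 0.336% and 0.156% to 0.191%, and their part was not tested.

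At E7.5, SC Mir-6KO;Dnmt-null embryos carry deletions of Mir541, Mir409 and Mir369 on 1 of the 2 parental genomes. They are also mutant in the Dnmt genes, which SC control embryos keep, so the deletions and Dnmt loss cannot be told apart. These embryos differed from SC control in 0 of 31 members, where 3.08% of 585 miRNAs were called. There were 5 members at an unadjusted p under 0.05, and DESeq2 called 3. The share was 6.76% ± 0.787 against 7.61% ± 1.09 in control (n = 3 each). The arms of the deleted genes were read in every library. miR-541-5p stood at 30071, 22839.5 and 26144 CPM against 36269.7, 28027 and 28456 (-0.48 ± 0.14, adjusted p = 0.14), with the groups overlapping. miR-409-3p stood at 20235, 17714 and 19387 against 28798, 22415 and 22321 (-0.60 ± 0.14, adjusted p = 0.0731), with no overlap. miR-409-5p (-0.38 ± 0.15, adjusted p = 0.349), miR-541-3p (-0.88 ± 0.35, adjusted p = 0.335), miR-369-3p (-0.40 ± 0.41, adjusted p = 0.974) and miR-369-5p (-0.21 ± 0.28, adjusted p = 0.995) were also below 0 in the fit and not called. The members' median was -0.09 against -0.04 over all. Epiblast markers made up 7.75% to 17.1% of counts in Mir-6KO;Dnmt-null and 17.8% to 22% in control, and white blood cell markers 0.0449% to 0.0587% against 0.00569% to 0.00899%. Liver and visceral endoderm markers made up 0.265% to 0.418% against 0.142% to 0.211%.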

How the data were processed

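CAS-seq small RNA libraries from 91 samples were analysed from the deposited tables, which hold the authors' counts of reads per mature miRNA, not normalised (1504 miRNAs in 88 libraries, and 895 in 3 libraries of SC DKO;Dnmt-null). The submitters' processing notes name fastp 0.20.1, Bowtie 1.2.1.1, DESeq2 1.30.1 and GRCm38, and per the study's methods reads were mapped to the genome and then to miRBase 21 mature miRNAs, allowing 2 nt either way at the 3′ end. Such assignment can split reads between near-identical arms, and amplification without molecular identifiers leaves intervals that cover counting error only. 2 count columns that match no sample were not used.

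Fold changes came from edgeR's quasi-likelihood test (edgeR 4.0.16, limma 3.58.1, R 4.3.3) on whole tables, TMM factors, filterByExpr with a minimum count of 10, and Benjamini-Hochberg adjustment over all miRNAs tested at 0.05. Each tissue and stage was fitted with its 4 genotypes together. For tissue, stage and interaction, all groups of dissected embryos, of both tissues, both stages and the 4 genotypes, were fitted together. AG-haESCs, SC E6.5 and SC E7.5 were fitted separately, and DKO;Dnmt-null with DKO on the shared miRNAs. DESeq2 1.42.0 was an alternative, beside RLE factors, TMM factors without the locus, no filter, the study's thresholds, a replicate block and leaving out each library. Tables were made in Python 3.11.15 with pandas 2.3.3 and numpy 2.4.6. Medians count each member once, and members listed at 0 in a group were also set to the bound of 3 counts per library. The fits were tested on simulated counts. Over 118 pairs of libraries of the same group, chi-squared divided by its degrees of freedom was at least 4.2. No library was thus a copy of another of its group, and libraries of different groups were not compared in this way. Replicate numbers were not taken to pair samples.

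The members and marker lists were chosen with earlier results of these data known. Values were given for both arms of miR-541, miR-369 and miR-409, the 6 most abundant members in embryos, up to 3 called members with the largest change and groups apart in each comparison, and arms sharing a seed. Other called members were given by their fold change or its range. Sequences are those of RefSeq, and positions those of GRCm38.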

Additional observations from a re-analysis of the deposited data

Results flagged for a closer look

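Within groups of 4 libraries, 10 of the 140 combinations of group and measure examined (7.14%) had 1 library far from the other 3, where chance gives about 1 in 20. The share of counts on the 42 miRNAs was 7.07% in E7.5 Exe Dnmt1-KO replicate 4, against 6.37% to 6.4% in the other 3. miR-541-5p stood at 15289 CPM in E7.5 Epi Dnmt1-KO replicate 3, against 13217 to 13566. Its minor arm miR-541-3p was set apart in 3 groups. It was at 0 CPM in E6.5 Exe Dnmt-null replicate 3 against 128 to 148, at 56.9 in E6.5 Epi control replicate 2 against 133 to 143, and at 272 in E7.5 Exe Dnmt3a/3b-DKO replicate 3 against 205 to 214.

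Both arms of miR-369 appeared in the same way. miR-369-5p stood at 862 CPM in E6.5 Epi Dnmt3a/3b-DKO replicate 2 against 374 to 430.4, and at 920.0 in E7.5 Epi Dnmt1-KO replicate 3 against 697 to 730.2. miR-369-3p stood at 506 CPM in E6.5 Exe Dnmt-null replicate 2 against 240.2 to 253, and at 72.5 in E7.5 Exe Dnmt-null replicate 4 against 282 to 298. In that last library miR-409-5p was also low, at 6936 CPM against 10564 to 11310.4.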

How the results depend on the processing

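For the members called in the 32 comparisons, 122 results were recomputed under 1438 alternatives. The direction held in all of them, and 1220 also kept their side of the threshold, while 218 did not. Of the 122, 78 kept the call under every alternative run. The counts of called members were recomputed 199 times, and 136 lay within 1.5 times the reported count. Where a count moved with fewer libraries, fewer libraries entered the fit, and for the other alternatives the cause was not tested.

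With the study's own thresholds (unadjusted p under 0.05 and an absolute log2 fold change above 0.5, which 1.6% to 59% of all tested miRNAs met), the counts that moved were as follows. In E6.5 Exe they were 3 for Dnmt-null against control, 1 for Dnmt1-KO against control and 1 for Dnmt-null against Dnmt1-KO. In E6.5 Epi they were 1 for Dnmt1-KO and 6 for Dnmt3a/3b-DKO against control, and 4 and 5 for Dnmt-null against Dnmt1-KO and Dnmt3a/3b-DKO. In E7.5 Exe they were 10, 8 and 3 for Dnmt-null, Dnmt1-KO and Dnmt3a/3b-DKO against control, and 3 and 5 for Dnmt-null against the other 2 mutants. They were 11 and 1 for Exe against Epi at E6.5 and E7.5, 5 and 7 for stage in Exe and Epi, and 10 for the interaction at E6.5. In SC embryos they were 2 for DKO and 1 for Dnmt-null against WT, 4 for DKO;Dnmt-null against DKO and 3 at E7.5.

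With DESeq2 the moved counts were 3 for E6.5 Exe Dnmt-null against control and 1 against Dnmt1-KO; in E6.5 Epi 1 for Dnmt3a/3b-DKO against control, and 3 and 2 for Dnmt-null against Dnmt1-KO and Dnmt3a/3b-DKO; in E7.5 Exe 5 and 2 for Dnmt1-KO and Dnmt3a/3b-DKO against control, and 2 and 3 for Dnmt-null against them. It gave 6 for E7.5 Epi Dnmt-null against Dnmt1-KO, 1 for E7.5 Exe against Epi, 5 for stage in Epi, 4 for the E6.5 interaction, 1 for SC DKO against WT and 3 for SC E7.5. RLE factors gave 0 for E6.5 Exe Dnmt3a/3b-DKO against control, 1 for Dnmt-null against Dnmt1-KO, 1 for E6.5 Exe against Epi and 1 for the E6.5 interaction. With no filter on low counts the moved counts were 1 for E6.5 Exe Dnmt-null against Dnmt1-KO, 2 for E6.5 Epi Dnmt-null against control and 2 against Dnmt3a/3b-DKO, 1, 1 and 0 in E7.5 Exe (Dnmt1-KO against control, and Dnmt-null against Dnmt1-KO and Dnmt3a/3b-DKO), 0 for E6.5 Exe against Epi, 0 for stage in Exe and 1 in Epi. TMM factors without the locus gave 1 for E6.5 Exe Dnmt-null against Dnmt1-KO, 1 for E7.5 Exe Dnmt3a/3b-DKO and 15 for E7.5 Epi Dnmt1-KO against control, 4 for E6.5 Exe against Epi, 1 for stage in Epi and 11 for SC DKO;Dnmt-null against DKO.

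These last factors moved the median of all tested miRNAs by 0.26, 0.11, 0.14 and 0.32 in Dnmt-null against control (Exe and Epi at E6.5, then Exe and Epi at E7.5), while the members' median minus that of all miRNAs was 0.62, 0.36, 0.53 and 0.90, against 0.62, 0.33, 0.51 and 0.91 as reported. In O48 against WT the RLE factors moved the median of all by 0.37 and left that difference at -4.06.

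With the replicate number as a block the moved counts were 1 for E6.5 Exe Dnmt-null against Dnmt1-KO, 1 and 0 in E7.5 Exe (Dnmt1-KO against control and Dnmt-null against Dnmt3a/3b-DKO) and 1 for E7.5 Exe against Epi. In each family of groups compared, at least 1 pair of same-numbered libraries had deviations from the group means that correlated below 0.1. The lowest of a family ran from -0.263 to 0.0404. A single low pair can also occur among paired samples, so this does not show that the libraries share only a number. As a hint from the data, same-numbered pairs correlated more (0.0404 to 0.138) than others (-0.102 to 0.0312) in SC DKO;Dnmt-null with DKO, and had the higher median in SC E6.5 (0.17 against -0.0948) and in E6.5 control Exe and Epi (0.145 against -0.0306), whereas in E6.5 Epi the ranges overlapped (-0.131 to 0.537 against -0.486 to 0.422). Whether same-numbered libraries are paired thus stayed unsettled, and it was not tested why calls were lost under the block. Alternatives chosen after seeing the data gave 2 for E6.5 Epi Dnmt3a/3b-DKO against control without the shallowest library, and in models of 2 groups alone 0 and 3 for Exe against Epi at E6.5 and E7.5 and 11 for stage in Epi.

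Leaving out 1 library at a time, the counts against control in the order Dnmt-null, Dnmt1-KO, Dnmt3a/3b-DKO ran from 1 to 2, 0 to 1 and 0 to 1 for E6.5 Exe, 3 to 5, 0 to 0 and 0 to 0 for E6.5 Epi, 4 to 7, 1 to 2 and 0 to 0 for E7.5 Exe, and 10 to 11, 5 to 10 and 2 to 4 for E7.5 Epi. For Dnmt-null against Dnmt1-KO and Dnmt3a/3b-DKO they ran from 0 to 1 and 0 to 0, 0 to 2 and 1 to 2, 0 to 2 and 0 to 1, and 0 to 4 and 6 to 15 in the same order. Exe against Epi gave 1 to 4 and 0 to 1, stage 1 to 3 in both tissues, and the interactions 0 to 1 and 0 to 0. O48 gave 21 to 24, the libraries labelled Mir-6KO 23 to 25, and SC embryos 0 to 1 (DKO), 0 to 1 (Dnmt-null), 5 to 9 (DKO;Dnmt-null) and 0 to 0 (E7.5).

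The share of counts, in the order control, Dnmt1-KO, Dnmt3a/3b-DKO, then Dnmt-null, ran with 1 library left out from 3.22 to 3.55%, 4.11 to 4.99%, 5.1 to 5.87% and 5.81 to 6.6% for E6.5 Exe, 4.04 to 4.13%, 5.22 to 5.53%, 4.14 to 4.85% and 7.52 to 7.98% for E6.5 Epi, 4.83 to 5.11%, 6.38 to 6.62%, 6.01 to 6.45% and 7.29 to 7.69% for E7.5 Exe, and 4.08 to 4.21%, 6.18 to 6.35%, 4.54 to 4.69% and 7.08 to 7.71% for E7.5 Epi. It ran from 1.17 to 1.21% in AG-haESC WT, 0.0561 to 0.0615% in O48, 4.54 to 5.57% in the libraries labelled Mir-6KO, 6.43 to 13.5%, 9.68 to 10.4%, 6.41 to 6.7% and 8.17 to 8.65% in SC E6.5 WT, Dnmt-null, DKO, then DKO;Dnmt-null, and 6.97 to 7.94% and 6.38 to 7.17% in SC E7.5 control and Mir-6KO;Dnmt-null.

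Leaving the other miRNAs of the locus out of the total, the shares that moved were 7.33% (E6.5 Exe Dnmt-null), 4.52%, 6.39% and 9.62% (E6.5 Epi control, Dnmt1-KO and Dnmt-null), 5.62%, 7.87%, 7.37% and 8.94% (E7.5 Exe in the order above), 4.58%, 7.57%, 5.16% and 8.69% (E7.5 Epi), 9.13% and 8.12% (SC E7.5 control and Mir-6KO;Dnmt-null), 12.7%, 7.81% and 10.3% (SC E6.5 Dnmt-null, DKO and DKO;Dnmt-null), 1.23% (AG-haESC WT) and 5.79% (libraries labelled Mir-6KO). Without the 10 most abundant other miRNAs they were 5.36%, 6.79%, 8.12% and 9.3% for E6.5 Exe, 7.33%, 9.78%, 8.41% and 13.5% for E6.5 Epi, 7.65%, 9.97%, 9.11% and 11.4% for E7.5 Exe, 8.73%, 12.1%, 8.81% and 12.8% for E7.5 Epi, 14.3% and 11% in SC E7.5, 15.5%, 11.8% and 13.8% in SC E6.5 Dnmt-null, DKO and DKO;Dnmt-null, and 2.04%, 0.0984% and 10.4% in AG-haESC WT, O48 and the libraries labelled Mir-6KO. Dnmt-null stayed the highest of the 4 genotypes by mean in each tissue and stage under both. The E6.5 embryo libraries were shallower, and in the genotype comparisons 24 to 26 members could be tested at E6.5, against 32 or 33 at E7.5.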

Other observations

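The 3 AG-haESC libraries labelled 408, which the labels put in no genotype, had totals of 4122583 to 4934696 counts, and 0.0236%, 0.025% and 0.0268% of these fell on the 42 miRNAs. miR-541-5p stood at 88.2, 83.7 and 83.4 CPM, miR-409-3p at 66.7, 59.9 and 70.3, and miR-409-5p at 31.2, 18.9 and 15.9. The values of these 3 arms lay below those of every O48 library. miR-485-3p stood at 22.9, 11.9 and 24.7 CPM, miR-410-3p at 1.42, 12.1 and 9.24, and miR-668-3p at 0 in all 3. Naive markers made up 5.84% to 6.1% and epiblast markers 0.244% to 0.247% of their counts.

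Among Dnmt-null and control embryos, the other 71 miRNAs of the locus gave 0 of 47 tested as called in Exe and 7 of 54 in Epi at E6.5, and 7 of 62 in Exe at E7.5, all higher in Dnmt-null, with medians of 0.52, 0.32 and 0.31. In the libraries labelled Mir-6KO against O48, they gave 51 higher and 1 lower of 63, with a median of 5.83.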
